A study of Gallus gallus with 12 samples.

Results

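The liver and the abdominal fat of normal chickens fed a high-fat diet (HFD) were compared, gene by gene, to show how lipid synthesis, storage and export were divided between the 2 tissues. The comparison used the 3 livers and the 3 abdominal fats labelled HN, which are 6 of the 12 libraries of the series. The other 6 are the livers and fats labelled NN, from birds on the normal diet, and they served as a second set in which each tissue difference could be measured again. All birds were female purebred Xinghua chickens, which the labels call broilers of 8 weeks. The HFD held 25% fat and the normal diet 5% fat, and the diets were given for 2 weeks to birds that were 8 weeks old at the start. Sex-linked dwarf birds were not analysed here. Each library is 1 tissue sample, and each value is an FPKM, a count of sequenced fragments scaled for transcript length and for library size. Differences were taken on the log2(FPKM + 1) scale as liver minus fat, which understates the difference of genes with low values. The files list 18332 genes, and the 12511 whose mean FPKM over the 6 HN libraries reached 1 were tested. The labels do not say whether a liver and a fat with the same number came from 1 bird, and the p-values measure the spread between these samples.

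In birds the liver is the main site of fatty acid synthesis, and adipose tissue makes little fat of its own. The liver packs triglyceride and cholesterol with apolipoprotein B into very-low-density lipoproteins (VLDL), which carry them to other tissues. Lipoprotein lipase at the capillary wall of adipose tissue then frees the fatty acids, which adipocytes take up, esterify again and keep in a lipid droplet coated with perilipins. Between meals adipose triglyceride is broken down by lipases, and the liver oxidises part of the fatty acids that return to it and makes ketone bodies from them. Dietary fat itself reaches the avian liver through the portal vein in lipoproteins of the gut.

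The labelled tissues matched their defining markers. ALB, the plasma protein made by hepatocytes, was at 32466, 19544 and 25944 FPKM in the HN livers and at 21.3, 19.4 and 22.01 FPKM in the HN fats. All 19 tested hepatocyte markers were higher in liver, and their summed level was 55712 to 76417 FPKM in the livers against 95.1 to 139 FPKM in the fats. CPS1, which is a hepatocyte marker in mammals, was below 1 FPKM in all 6 libraries. FABP4, the fatty acid-binding protein of adipocytes, was at 13509, 10767 and 12862 FPKM in the fats and at 3.07, 3.56 and 2.44 FPKM in the livers. All 8 tested adipocyte markers were higher in fat, with a summed level of 18127 to 20264 FPKM against 324 to 422 FPKM in liver. The fats also carried the 12 endothelial, 12 of 13 tested stromal and 8 of 8 smooth muscle markers at a higher level than the livers. Of all tested genes 50.7% were higher in fat and 14.8% in liver. The summed stromal level was 5769 to 10984 FPKM in fat and 157 to 239 FPKM in liver. The part of these other cells in the differences below was not tested, and in whole tissue fewer cells of a type and less RNA per cell cannot be told apart. Macrophage markers summed to 102, 1070 and 1026 FPKM in livers 1, 2 and 3, so that liver 1 was low in them. With all libraries 2 of 9 tested macrophage markers were higher in liver, and 6 were when liver 1 was left out.

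The summed FPKM was 600829 to 642102 in the livers and 476115 to 494849 in the fats, and 10735 to 11214 genes reached 1 FPKM in liver against 12176 to 12322 in fat. A larger share of the total lay in few genes in liver, where the top 10 held 21.8% to 23.7%, than in fat, where they held 10.25% to 11%. APOA1 led each HN liver and FABP4 led each HN fat. The median over all tested genes of the log2 difference was -0.64, so that a typical gene read lower in liver. Read counts were not analysed here. The smallest values above 0 put the relative depth of the libraries at 0.986 to 1.05. That estimate used only values close to each gene's lowest value, which draws it toward equal depth. It could not have shown a large difference in depth. Replicate 2 stood apart in both tissues for a set of stress-response genes, which is described at the end.

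In the HN libraries 8202 of 12511 genes, 65.6%, passed an adjusted p of 0.05 in limma. Higher in liver were 1853 genes, 14.8% of those tested, and higher in fat were 6349 genes, 50.7%. A difference of at least 4-fold was called for 784 genes in favour of liver, 6.27%, and for 1677 genes in favour of fat, 13.4%. This split depended on the scale. When the libraries were scaled by the median ratio of their genes, which moved the median difference to -0.01, 3646 genes (29.1%) were higher in liver and 3604 genes (28.8%) in fat, 57.9% in all. All 1853 genes called higher in liver remained so under that scaling, while 3604 of the 6349 genes called higher in fat (56.8%) did, and 4 of them were called higher in liver instead. That scaling raised liver against fat, so it could hardly remove a call in favour of liver, and the kept liver calls are no test of them. Scaling each library to the same total (TPM) moved the median the other way, to -1.005, and none of the 119 named genes lost its call. For the named genes called higher in fat, the adjusted p with median-ratio scaling is given wherever it was no longer under 0.05. With 3 libraries against 3, an exact permutation test of a single gene cannot give a p below 0.1. A lack of overlap between the groups was also common. Every liver lay above every fat for 2062 of 12511 genes (16.5%), and every fat above every liver for 6796 (54.3%).

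Of 355 lipid gene symbols in 16 lists, 321 were matched to a gene of the files, and 291 of these passed the filter. Against the background of 14.8% and 50.7%, 144 of the 291 were higher in liver and 85 were higher in fat. The median difference over the 291 genes was 0.84, and 1.51 with median-ratio scaling. The lists were pooled by role. Export joined lipoprotein assembly, lipoprotein remodelling, bile acids and phospholipid synthesis, with 12, 7, 14 and 7 genes higher in liver. Storage joined triglyceride synthesis, droplet and lipolysis genes, so lipases are counted in it. Synthesis joined fatty acid, desaturase, cholesterol and acyl-CoA synthetase lists, and uptake the lipid uptake and fatty acid-binding protein lists. The genes of synthesis (37 in favour of liver and 13 of fat, of 69), of export (40 and 9, of 60) and of oxidation (24 and 2, of 29) were called higher in liver more often than the 14.8% of all tested genes. The genes of storage (12 in favour of liver and 24 of fat, of 48) and of uptake (6 and 10, of 23) had more calls for fat than for liver, but their shares called higher in fat were at or below the 50.7% of all tested genes. Among the 16 lists, only the lipid droplet list had a share called higher in fat above that 50.7% in FPKM. With median-ratio scaling the storage genes were called 17 times for liver and 16 times for fat, and the uptake genes 10 times and 8 times. The shares of both pools were then above the 29.1% and 28.8% of all tested genes. The droplet (6 of 12), lipolysis (6 of 17) and fatty acid-binding protein (4 of 9) lists had shares for fat above that 28.8%. The 5 storage genes that this scaling added for liver were AGPAT2, GK5, MGLL, NCEH1 and PDE3B, none of them a droplet coat gene. As a share of the summed FPKM of a library, the export genes took 9.43% to 11.8% in liver and 0.986% to 1.87% in fat. Storage genes took 0.558% to 0.772% in liver and 1.53% to 1.74% in fat, and synthesis genes took 1.12% to 1.81% and 0.913% to 1.02%. The tissues thus did not overlap in any of these pooled shares, and the export share had the widest gap. Single lists within a pool could differ from it. In the storage pool, the glycerol phosphate and triglyceride list took 0.255% to 0.302% in liver and 0.0512% to 0.114% in fat. PCK1 and PCK2, described below, made up most of its summed FPKM in each liver. Without them the summed levels of the list overlapped between the tissues. In the synthesis pool, citrate supply and fatty acid synthesis overlapped, at 0.466% to 0.898% in liver and 0.541% to 0.6% in fat. This overlap depended on THRSP, described below, which made up most of the summed FPKM of the list in each fat. Without THRSP each liver lay above each fat. The acyl-CoA synthetase list took 0.164% to 0.206% in liver and 0.209% to 0.294% in fat.

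**Figure D1:**
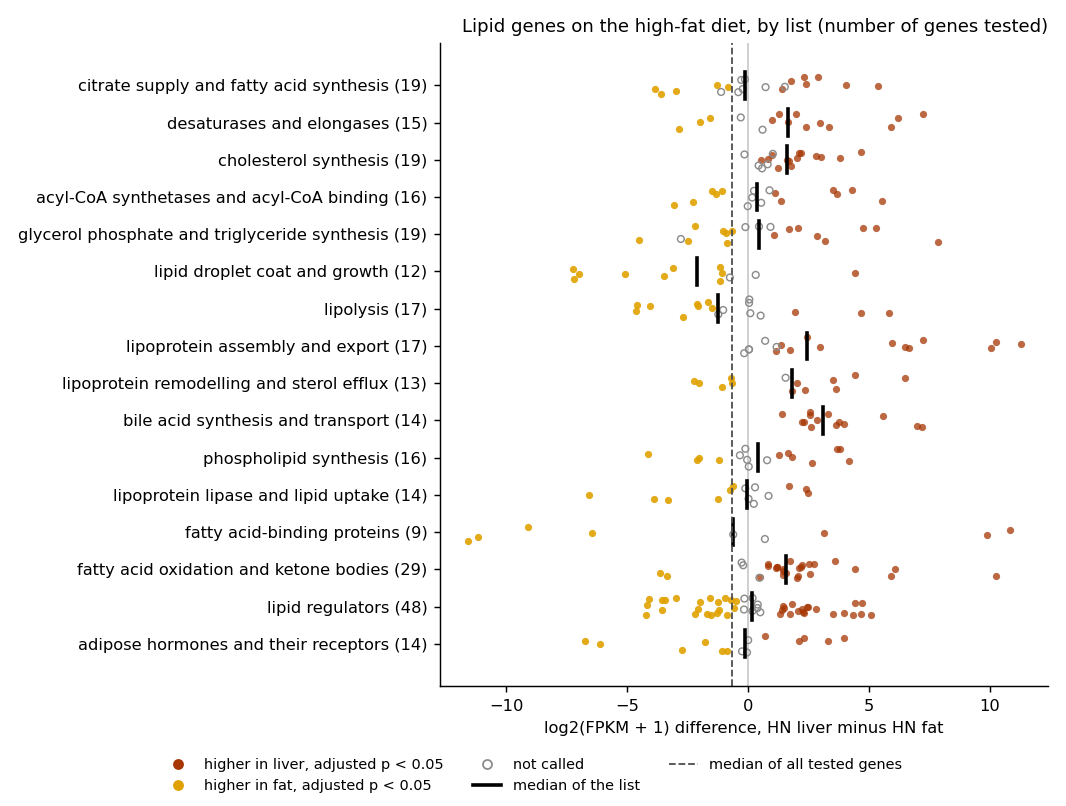
Differences in log2(FPKM + 1), HN liver minus HN fat (x axis), of the tested members of 16 lipid gene lists (y axis, number of tested members in brackets). Each point is 1 gene, filled when its adjusted p in limma was under 0.05, the black bar is the median of the list and the dashed line the median of all tested genes at -0.64. The lists of cholesterol synthesis, lipoprotein assembly, bile acids and oxidation lie mostly to the right, and the lipid droplet list has its median at -2.13.

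The first steps of fatty acid synthesis were higher in liver. SLC25A1, the mitochondrial citrate carrier that supplies carbon for fatty acids, was at 800.5, 497 and 732 FPKM in the livers and at 42.5, 35.7 and 40.9 FPKM in the fats (log2 difference 4.03 ± 0.21 SE, adjusted p = 6.57e-06). ACLY, which splits citrate into cytosolic acetyl-CoA, was at 215, 212 and 97.4 FPKM in liver and at 23.7, 20.01 and 20.4 FPKM in fat (log2 difference 2.89 ± 0.31 SE, adjusted p = 0.000201). The livers lay above the fats in every library for both genes, and liver 3 was the lowest liver for ACLY. ME1, the malic enzyme that makes cytosolic NADPH, was at 181, 45.4 and 30.4 FPKM in liver and at 9.39, 10.8 and 13.6 FPKM in fat (log2 difference 2.40 ± 0.60 SE, adjusted p = 0.00993), and without liver 1 the difference was 1.65 (adjusted p = 0.00193). PC, pyruvate carboxylase, which refills the citrate cycle, was 44.3 times as high in liver as in fat by the ratio of means.

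Acetyl-CoA carboxylase, which makes malonyl-CoA, was split by isoform. ACACA, the cytosolic form that feeds fatty acid synthesis, was at 164, 59.5 and 66.1 FPKM in the livers and at 16.02, 17.1 and 16.3 FPKM in the fats (log2 difference 2.33 ± 0.37 SE, adjusted p = 0.00121). ACACB, whose malonyl-CoA is known in mammals for restraining fatty acid entry into mitochondria, was at 8.39, 2.60 and 3.43 FPKM in the livers and at 58.8, 80.6 and 86.4 FPKM in the fats (log2 difference -3.83 ± 0.36 SE, adjusted p = 0.000108). The groups did not overlap for either gene, and the ratio of ACACA to ACACB within a library, which does not depend on the scaling, was 19.3 to 22.9 in the livers and 0.189 to 0.272 in the fats. The malic enzymes were divided in the same manner, since ME3, a mitochondrial form, was at 0.92, 0.78 and 0.98 FPKM in liver and at 23.1, 25.8 and 18.3 FPKM in fat.

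FASN, the multifunctional fatty acid synthase, varied widely among the livers, with 165, 83.3 and 25.2 FPKM in livers 1, 2 and 3 against 23.2, 33.1 and 17.8 FPKM in the fats. Liver 3 lay within the range of the fats, and the difference was not called (log2 difference 1.52 ± 0.63 SE, adjusted p = 0.0666, 95% interval 0.04 to 3.01), although it was called with median-ratio scaling (adjusted p = 0.0268), with the replicate number as a block (adjusted p = 0.0273) and without liver 3 (adjusted p = 0.00296). FASN was called in 5 of 15 alternatives, and without liver 1 its log2 difference was 0.914 and was not called (limma, adjusted p = 0.168). Liver 1 had the highest FASN, ACACA and ME1 of the 3 livers and the lowest macrophage markers. The part of macrophages in these values was not tested. ACSS2, which activates acetate, was at 45.9, 159 and 15.5 FPKM in the livers and at 109, 103 and 108 FPKM in the fats, so that only liver 2 exceeded the fats, and it was not called (adjusted p = 0.212). With liver 2 left out it was called higher in fat (log2 difference -1.96, adjusted p = 0.00735).

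THRSP, the thyroid hormone responsive protein Spot 14 that follows lipogenesis, was abundant in both tissues, at 2684, 854 and 1550.5 FPKM in liver and at 1862, 2138 and 2066 FPKM in fat. The groups overlapped and the gene was not called (adjusted p = 0.391), although with quantile normalization it was called higher in fat (log2 difference -1.34, adjusted p = 0.00786). Over the whole list of citrate supply and fatty acid synthesis, 7 of 19 genes were higher in liver, 5 were higher in fat and 7 were not called, with a median difference of -0.13. All tested genes had 14.8% in favour of liver and 50.7% of fat. With median-ratio scaling the list had 10 genes in favour of liver and 3 of fat (ACACB, ME3 and PKM), against 29.1% and 28.8% of all tested genes.

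Most genes of desaturation and elongation were higher in liver. SCD, the stearoyl-CoA desaturase that makes oleate, was at 1053, 193 and 226 FPKM in the livers and at 103, 85.3 and 33.1 FPKM in the fats (log2 difference 2.41 ± 0.71 SE, adjusted p = 0.0194). ELOVL6, which takes palmitate to stearate, was at 473, 241 and 201 FPKM in liver and at 3.36, 3.65 and 4.37 FPKM in fat (log2 difference 5.90 ± 0.32 SE, adjusted p = 7.36e-06). The lowest liver exceeded the highest fat for both genes, and liver 1 again had the highest level. Without fat 3 the difference of SCD was 1.92 and was no longer called (adjusted p = 0.0674), and without liver 1 it was 1.64 (adjusted p = 0.0249). ELOVL7, an elongase of saturated and monounsaturated chains, had the opposite pattern, with 0.58, 0.35 and 1.11 FPKM in liver and 11.4, 12.8 and 9.17 FPKM in fat.

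The genes for long polyunsaturated chains were higher in liver. ELOVL2, the elongase of that pathway, was at 80.3, 85.99 and 67.2 FPKM in the livers and at 0.17, 0.06 and 0 FPKM in the fats. FADS6, a member of the fatty acid desaturase family, was at 180.4, 128 and 199 FPKM in liver and at 0.03, 0.12 and 0.16 FPKM in fat. FADS1 and FADS2, the delta-5 and delta-6 desaturases, were 11.3 and 8.05 times as high in liver by the ratio of means. ELOVL2 and FADS6 were near 0 in the fats, while FADS1 and FADS2 were at 9.24 FPKM or more in each fat. In all, 10 of 15 tested desaturase and elongase genes were higher in liver and 3 were higher in fat (SCD5, ELOVL7 and the 3-hydroxyacyl-CoA dehydratase HACD1, named PTPLA in the files), with a median of 1.65. The same 3 were higher in fat with median-ratio scaling. The background over all tested genes was 14.8% for liver and 50.7% for fat in FPKM.

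In the cholesterol list 14 of 19 tested enzymes were higher in liver and none in fat, against 14.8% and 50.7% of all tested genes. The list median was 1.60. HMGCS1, an early synthase of the pathway, was at 241, 462 and 101 FPKM in the livers and at 7.14, 9.98 and 7 FPKM in the fats (log2 difference 4.66 ± 0.50 SE, adjusted p = 0.000199). SC5D, the sterol C5-desaturase near the end of the pathway, was at 272, 241 and 259 FPKM in liver and at 38.4, 41.2 and 29.3 FPKM in fat (log2 difference 2.81 ± 0.17 SE, adjusted p = 1.34e-05). The livers lay above the fats in both, but liver 2 was highest for HMGCS1 and no liver stood out for SC5D. Among those not called were SQLE, DHCR7 and HSD17B7. HSD17B7 was called in 6 of 15 alternatives. These included median-ratio scaling (adjusted p = 0.0182), the replicate block (adjusted p = 0.0188) and the fit without replicate 2 of both tissues (log2 difference 0.66, adjusted p = 0.0419). DHCR7, the last reductase of the pathway, was at 7.49, 7.25 and 4.74 FPKM in liver and at 8.93, 6.32 and 6.54 FPKM in fat.

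Activation of fatty acids was divided by enzyme. ACSL1, the main long-chain acyl-CoA synthetase of adipocytes, was at 189.7, 90.8 and 141 FPKM in the livers and at 420.5, 408 and 306 FPKM in the fats (log2 difference -1.47 ± 0.29 SE, adjusted p = 0.0032), and its adjusted p was 0.0695 with median-ratio scaling. ACSL5 was at 124, 64.8 and 57.3 FPKM in liver and at 2.43, 2.77 and 3.72 FPKM in fat (log2 difference 4.31 ± 0.30 SE, adjusted p = 2.66e-05). ACSL4, which prefers arachidonate, was higher in fat, with 0.98, 5.13 and 2.61 FPKM in liver and 20.8, 52.4 and 21.5 FPKM in fat. The livers held more ACSL1 than ACSL5, yet the ratio of ACSL5 to ACSL1 was 0.405 to 0.714 in the livers and 0.00578 to 0.0122 in the fats. The medium-chain synthetase ACSM5 was at 45.1, 37.97 and 64.1 FPKM in liver and below 0.1 FPKM in each fat.

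**Figure D2:**
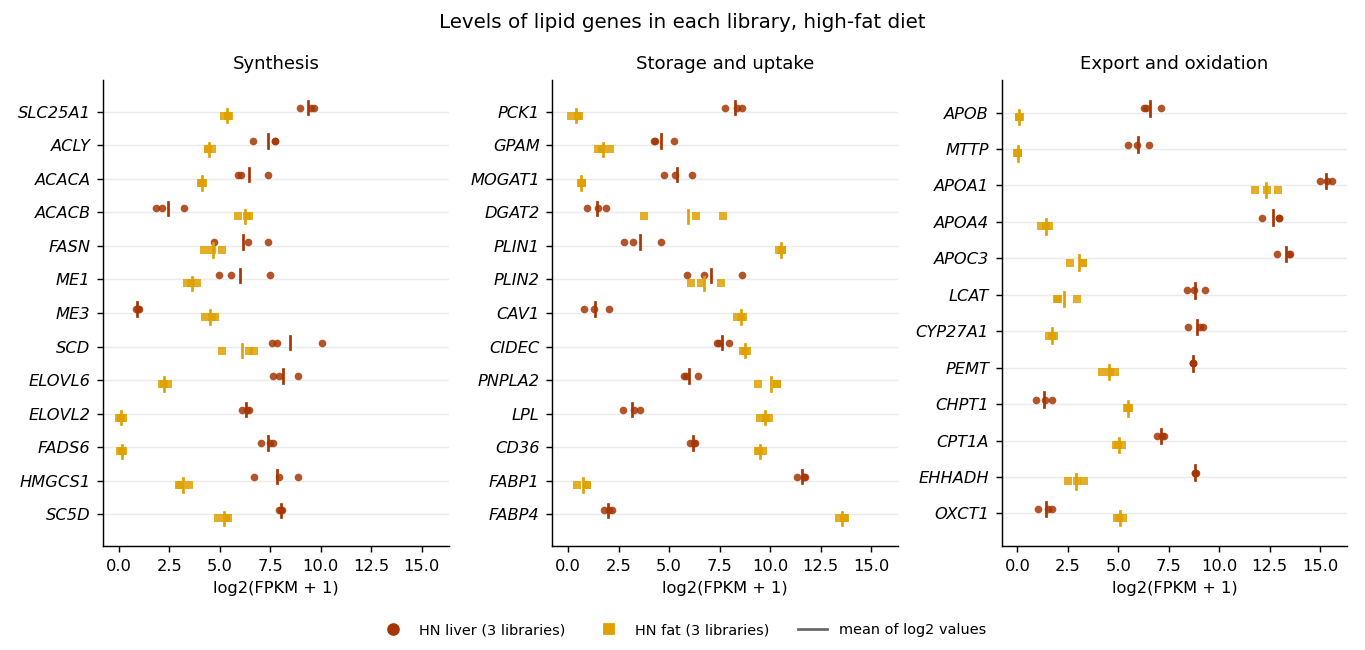
Levels of 38 lipid genes as log2(FPKM + 1) (x axis) in the 3 HN livers (circles) and the 3 HN fats (squares), with a short bar at the mean of the log2 values. SLC25A1, ELOVL6 and APOB lie far to the right in liver, PLIN1, LPL and FABP4 in fat, and FASN, PLIN2 and CIDEC have the 2 tissues close together or overlapping.

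Enzymes of glycerol 3-phosphate, the backbone of triglyceride, differed in level between the tissues, and some were present in both. PCK1, the cytosolic phosphoenolpyruvate carboxykinase of gluconeogenesis and glyceroneogenesis, was at 327, 392 and 220.1 FPKM in the livers and at 0.40, 0.12 and 0.45 FPKM in the fats (log2 difference 7.86 ± 0.24 SE, adjusted p = 6.51e-07). PCK2, the mitochondrial form, was at 1034, 1085 and 1048 FPKM in liver and at 26.8, 25.2 and 26.6 FPKM in fat (log2 difference 5.28 ± 0.13 SE, adjusted p = 3.59e-07). The livers held both forms, and the fats held PCK2 and almost no PCK1. GPD1L and GPD2, which are glycerol-3-phosphate dehydrogenases, were higher in fat. GPD2 was at 1.03, 2.07 and 1.90 FPKM in liver and at 14.3, 13.8 and 13.2 FPKM in fat (log2 difference -2.49 ± 0.20 SE, adjusted p = 4.79e-05). GK, glycerol kinase, which reuses free glycerol, was 2.15 times as high in liver as in fat, and the glycerol channel AQP9 was 10.4 times as high.

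The acylation steps also differed by isoform. GPAM, the mitochondrial glycerol-3-phosphate acyltransferase, was at 36.7, 18.8 and 18.4 FPKM in the livers and at 1.79, 2.22 and 3.20 FPKM in the fats (log2 difference 2.86 ± 0.30 SE, adjusted p = 0.000177). The endoplasmic reticulum form GPAT3, named AGPAT9 in the files, was at 13.9, 11.1 and 14.8 FPKM in liver and at 22.3, 37.2 and 18.1 FPKM in fat (adjusted p = 0.0269, and 0.687 with median-ratio scaling). That call was lost in 7 of the 15 alternatives tried, among them the fits without liver 1, liver 2, fat 1 or fat 2 (adjusted p = 0.0521, 0.0745, 0.0529 and 0.0512) and the fit without replicate 2 of both tissues (adjusted p = 0.088). The ratio of GPAM to GPAT3 was 1.24 to 2.63 in the livers and 0.0597 to 0.177 in the fats. LPIN1, a phosphatidate phosphatase, was at 2.48, 43.1 and 1.60 FPKM in the livers and at 26.2, 121 and 37.7 FPKM in the fats, with replicate 2 highest in both tissues (adjusted p = 0.0587, and 0.00386 with the replicate block). LPIN2, of the same family, was at 21.4, 21.02 and 28.03 FPKM in liver and at 4.54, 9.10 and 6.44 FPKM in fat (log2 difference 1.70 ± 0.25 SE, adjusted p = 0.000828).

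Further acyltransferases of triglyceride synthesis also differed. DGAT2, a diacylglycerol acyltransferase, was at 80.6, 205 and 12.5 FPKM in the fats and at 0.91, 1.75 and 2.69 FPKM in the livers (log2 difference -4.50 ± 0.90 SE, adjusted p = 0.00371). Every fat lay above every liver, although the fats spread widely, with fat 2 highest and fat 3 lowest. The difference was -3.63 without fat 2 and -5.59 without fat 3, and was called in both cases. MOGAT1, a monoacylglycerol acyltransferase, which makes diacylglycerol, was at 37.6, 26.2 and 70.2 FPKM in the livers and at 0.53, 0.59 and 0.61 FPKM in the fats (log2 difference 4.74 ± 0.34 SE, adjusted p = 2.67e-05). DGAT1 was not analysed here. Over the list of glycerol phosphate and triglyceride synthesis, 8 of 19 tested genes were higher in liver and 7 in fat, with a median of 0.45. Among all tested genes 14.8% were higher in liver and 50.7% in fat, so the share was raised for liver and not for fat. With median-ratio scaling the counts were 10 and 4, against 29.1% and 28.8%. Without fat 2 the 7 in favour of fat became 4.

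The coat of the lipid droplet was higher in fat. PLIN1, the perilipin that guards the adipocyte droplet, was at 1519, 1531 and 1373 FPKM in the fats and at 5.90, 8.29 and 23.6 FPKM in the livers (log2 difference -6.98 ± 0.44 SE, adjusted p = 1.52e-05). PLIN4 was at 843, 774 and 626 FPKM in fat and at 40.8, 135 and 113 FPKM in liver (log2 difference -3.10 ± 0.43 SE, adjusted p = 0.00065). The groups did not overlap for either gene, and the highest liver of each was liver 3 for PLIN1 and liver 2 for PLIN4. PLIN2, the perilipin found on droplets of most cells, was not called (adjusted p = 0.71), with 105, 388 and 57.6 FPKM in the livers and 67.02, 192 and 94.2 FPKM in the fats. Replicate 2 was the highest in both tissues for PLIN2. PLIN2 exceeded PLIN1 2.44 to 46.8 times in the livers, while in the fats PLIN2 was 0.0441 to 0.125 of PLIN1.

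The proteins of caveolae, the membrane pits in which adipocytes are rich, were among the largest differences. CAV1 was at 333, 409 and 381 FPKM in the fats and at 0.72, 3.04 and 1.39 FPKM in the livers (log2 difference -7.20 ± 0.30 SE, adjusted p = 2.63e-06), and PTRF (cavin-1) was at 841, 919.8 and 736 FPKM and 17.7, 31.4 and 23.7 FPKM in the same order. FITM2, which partitions triglyceride into droplets, was at 34.7, 26.6 and 30.4 FPKM in fat and at 1.91, 1.96 and 1.72 FPKM in liver (log2 difference -3.46 ± 0.16 SE, adjusted p = 3.78e-06). Caveolar genes are also expressed by endothelium, whose markers were higher in the fats. The 2 droplet-fusion genes were present in both tissues. CIDEA was at 173, 147 and 109 FPKM in the livers and at 266, 245 and 400.0 FPKM in the fats, and CIDEC was at 166, 251 and 177 FPKM and 462, 437 and 404 FPKM. Both were higher in fat in FPKM (adjusted p = 0.00771 and 0.00163) but not with median-ratio scaling (adjusted p = 0.322 and 0.147).

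HSD17B11, a droplet-associated hydroxysteroid dehydrogenase, was the single member of the droplet list higher in liver, at 386, 263 and 452 FPKM against 14.9, 16.8 and 15.2 FPKM in fat (log2 difference 4.43 ± 0.22 SE, adjusted p = 4.92e-06). In all, 9 of 12 tested droplet genes were higher in fat, against 50.7% of all tested genes, with a list median of -2.13. Median-ratio scaling kept 6 of them in favour of fat (PLIN1, PLIN4, CAV1, CAV2, PTRF and FITM2), with a median of -1.40. All tested genes then had 28.8% in favour of fat.

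The lipase that opens triglyceride stores followed the droplet coat. PNPLA2 (adipose triglyceride lipase) was at 673, 1307 and 1315 FPKM in the fats and at 55.5, 85.4 and 52.9 FPKM in the livers (log2 difference -4.04 ± 0.32 SE, adjusted p = 4.49e-05). Its coactivator ABHD5 was at 132, 148 and 149.7 FPKM in fat and at 63.7, 55 and 25.1 FPKM in liver, and its inhibitor G0S2 was at 1167, 654 and 1027 FPKM in fat and at 161, 781 and 81.02 FPKM in liver. For G0S2 liver 2 exceeded fat 2, so the groups overlapped. Both partners were called in FPKM (adjusted p = 0.00372 and 0.0451) and not with median-ratio scaling (adjusted p = 0.0743 and 0.194). The call of G0S2 was lost in 8 of 15 alternatives, among them the replicate block (adjusted p = 0.0551), with adjusted p-values of 0.0637 to 0.119 when liver 1, liver 3 or any fat was left out. LIPE, the hormone-sensitive lipase, was not analysed here. CES1, a carboxylesterase, was at 105, 159 and 123 FPKM in liver and at 5.47, 3.03 and 4.04 FPKM in fat.

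A pair of receptors that switch lipolysis on and off were at or near 0 in liver. ADRB3, the beta-3 adrenergic receptor, was listed at 0 in the 3 livers and was at 2.97, 6.88 and 7.83 FPKM in the fats. ADORA1, the adenosine A1 receptor, which restrains lipolysis, was at 16.3, 34.8 and 23.4 FPKM in the fats and at 0.03, 0 and 0 FPKM in the livers. Protein kinase A, which relays the adrenergic signal, was split by subunit. PRKACB, a catalytic subunit, was at 42.7, 46.8 and 44.5 FPKM in fat and at 8.61, 10.6 and 9.69 FPKM in liver, while the catalytic subunit PRKACA was at 0.32, 0.95 and 0.47 FPKM and 93.5, 64.5 and 108 FPKM. The regulatory subunit PRKAR2B was at 38.8, 39.2 and 25.7 FPKM in fat and at 0.52, 0.39 and 0.47 FPKM in liver (log2 difference -4.58 ± 0.20 SE, adjusted p = 3.22e-06). Of 17 tested lipolysis genes 8 were higher in fat and 3 in liver (ABHD6, CES1 and PRKACA), with a median of -1.23. Over all tested genes 50.7% were higher in fat and 14.8% in liver, so the share for fat was not raised in this list in FPKM. With median-ratio scaling the counts were 6 and 6, with a median of -0.50. All tested genes then had 28.8% in favour of fat and 29.1% of liver. The list's share for fat lay above that 28.8%, so the reading depended on the scale.

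The genes of lipoprotein export were higher in liver. APOB, the structural protein of VLDL, was at 136, 80.7 and 76.3 FPKM in the livers and at 0.06, 0.07 and 0.09 FPKM in the fats (log2 difference 6.47 ± 0.24 SE, adjusted p = 1.46e-06). MTTP, which loads lipid onto it, was at 89.8, 59.9 and 43.6 FPKM in liver and at 0.02, 0.02 and 0 FPKM in fat (log2 difference 5.95 ± 0.26 SE, adjusted p = 3.14e-06). TM6SF2, which takes part in VLDL lipidation, was at 113, 70.8 and 175 FPKM in liver and at 0.36, 0.04 and 0.04 FPKM in fat. The fats held under 0.1 FPKM of APOB and MTTP in each library. SAR1B, a small GTPase of the coat that carries lipoproteins out of the endoplasmic reticulum, was 2.28 times as high in liver, whereas its relative SAR1A was not called (95% interval -0.69 to 0.37).

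The exchangeable apolipoproteins were the most abundant export genes. APOC3, an inhibitor of lipoprotein clearance, was at 11221, 7547 and 11767 FPKM in the livers and at 8.63, 5.17 and 8.59 FPKM in the fats (log2 difference 10.23 ± 0.26 SE, adjusted p = 4.02e-07). APOA4 was at 4432, 7929.7 and 7848 FPKM in liver and at 1.99, 1.26 and 1.68 FPKM in fat (log2 difference 11.28 ± 0.26 SE, adjusted p = 2.97e-07), and APOA5, an activator of lipoprotein lipase, was at 365, 420.4 and 419 FPKM and 2.40, 1.21 and 1.62 FPKM. APOA1, the main protein of high-density lipoprotein, was the exception in fat, where it was at 5189, 3455 and 7735 FPKM against 33052, 41036 and 48616 FPKM in liver (log2 difference 2.96 ± 0.33 SE, adjusted p = 0.000219). APOA1 made up 61.9% to 67.7% of the summed FPKM of the assembly list in the livers and 87.2% to 94.5% in the fats. ALB, given above, was far below APOA1 in those same fats, and the source of APOA1 in fat was not tested.

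Of 17 tested genes of lipoprotein assembly 12 were higher in liver and none in fat, against 14.8% and 50.7% of all tested genes. The list median was 2.44. The 2 vitellogenin genes, VTG1 and VTG2, which hens express in the liver for yolk, were below the filter, with at most 0.18 FPKM in a library. APOV1, another yolk lipoprotein gene, was at 5.69, 0.09 and 1.01 FPKM in the HN livers and at 325, 7.37 and 17.7 FPKM in the NN livers. Its difference between liver and fat was not called on the HFD (adjusted p = 0.125), and it was called when the lowest liver, liver 2, was left out (log2 difference 1.77, adjusted p = 0.0224).

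Lipoproteins are reshaped in plasma by enzymes of both tissues. LCAT, which esterifies cholesterol on high-density lipoprotein, was at 334, 422 and 631 FPKM in the livers and at 2.94, 3.09 and 6.75 FPKM in the fats (log2 difference 6.48 ± 0.34 SE, adjusted p = 6.36e-06). CETP, which exchanges cholesteryl ester and triglyceride, was at 38.9, 18.5 and 36.4 FPKM in liver and at 0.39, 0.99 and 0.06 FPKM in fat. PLTP, the phospholipid transfer protein, was higher in fat, at 11.4, 9.09 and 27.8 FPKM against 2.09, 2.61 and 2.24 FPKM in liver (log2 difference -2.21 ± 0.38 SE, adjusted p = 0.00172). ABCA1, which hands cellular cholesterol to APOA1, was at 15.6, 36.2 and 38.9 FPKM in fat and at 9.04, 5.38 and 4.71 FPKM in liver (log2 difference -2.02 ± 0.38 SE, adjusted p = 0.00275). The sterol transporters ABCG5 and ABCG8, which pass sterol into bile, were higher in liver, ABCG5 with 14.4, 19.7 and 19.1 FPKM against 0.52, 0.36 and 0.67 FPKM in fat. LIPC, hepatic lipase, was at 16.9, 5.17 and 1.99 FPKM in liver and at 0.39, 2.99 and 1.35 FPKM in fat, and was not called (adjusted p = 0.0766), although it was with median-ratio scaling (adjusted p = 0.0418) and without liver 3 (adjusted p = 0.0207). LIPC was called in 4 of 14 alternatives, and without liver 1 its log2 difference was 0.868 (limma, adjusted p = 0.191). The list had 7 of 13 genes in favour of liver and 5 of fat, with a median of 1.83, against 14.8% and 50.7% of all tested genes. With median-ratio scaling PLTP and ABCA1 were the 2 that stayed higher in fat. The 5 in favour of fat became 3 when liver 2, liver 3 or fat 3 was left out.

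The bile acid route was the most one-sided list, with 14 of 14 tested genes higher in liver and a median of 3.08. Higher in liver were 14.8% of all tested genes. CYP27A1, which starts the acidic pathway, was at 519.8, 347 and 588 FPKM in the livers and at 2.24, 2 and 2.49 FPKM in the fats (log2 difference 7.20 ± 0.22 SE, adjusted p = 6.32e-07). BAAT, which joins bile acids to amino acids, was at 89.2, 72.9 and 96.5 FPKM in liver and at 0.91, 0.70 and 0.88 FPKM in fat. CYP7A1, which starts the classical pathway, was low and variable among the livers, at 5.69, 1.93 and 12.01 FPKM, and at 0.12, 0 and 0.12 FPKM in the fats (log2 difference 2.56 ± 0.50 SE, adjusted p = 0.00322). The order of levels in each liver was CYP27A1 above BAAT and BAAT above CYP7A1.

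Phosphatidylcholine, the surface lipid of lipoproteins and droplets, had separate last steps. PEMT, which methylates phosphatidylethanolamine, was at 408, 417 and 419 FPKM in the livers and at 27.9, 17.1 and 23.2 FPKM in the fats (log2 difference 4.16 ± 0.19 SE, adjusted p = 4.03e-06). CHPT1, a choline phosphotransferase, was at 0.91, 1.59 and 2.27 FPKM in liver and at 43.05, 41.5 and 45.1 FPKM in fat (log2 difference -4.13 ± 0.22 SE, adjusted p = 6.63e-06), whereas CEPT1, which uses choline or ethanolamine, was at 105, 76.4 and 79.1 FPKM and 20.4, 27.4 and 22.6 FPKM. The ratio of CEPT1 to CHPT1 was 34.8 to 115 in the livers and 0.473 to 0.661 in the fats. The ethanolamine kinases were split too, with ETNK2 24.9 times as high in liver and ETNK1 5.36 times as high in fat. CHKA, choline kinase, was not called (adjusted p = 0.909), and replicate 2 was the highest in both tissues, at 12.02, 52.6 and 7.55 FPKM in liver and 11.98, 46.1 and 11.3 FPKM in fat. The list had 7 of 16 genes in favour of liver and 4 of fat, with a median of 0.41, against 14.8% and 50.7% of all tested genes. The same 4 genes (CHPT1, ETNK1, LPCAT1 and LPCAT2) were higher in fat with median-ratio scaling.

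Lipoprotein lipase and a pair of uptake receptors were higher in fat. LPL, lipoprotein lipase, was at 732, 979.5 and 882 FPKM in the fats and at 10.8, 5.47 and 8.56 FPKM in the livers (log2 difference -6.58 ± 0.25 SE, adjusted p = 1.53e-06). CD36, a fatty acid translocase, was at 677, 696 and 811 FPKM in fat and at 77.4, 64.3 and 74.3 FPKM in liver (log2 difference -3.32 ± 0.15 SE, adjusted p = 3.99e-06). VLDLR, the receptor for VLDL, was at 28.4, 32.7 and 30.6 FPKM in fat and at 0.61, 1.65 and 1.34 FPKM in liver (log2 difference -3.87 ± 0.22 SE, adjusted p = 8.86e-06). The groups stood clear of each other in all 3 genes, and no library was far from its own tissue. SLC27A4, a fatty acid transport protein, was higher in liver, at 126, 77.7 and 147 FPKM against 17.8, 19.4 and 21.6 FPKM (log2 difference 2.48 ± 0.25 SE, adjusted p = 0.000139). Of 14 tested uptake genes 6 were higher in fat and 3 in liver, with a median of -0.05. The share for fat was below the 50.7% of all tested genes. With median-ratio scaling 4 were higher in fat and 6 in liver, with a median of 0.64, against 28.8% and 29.1% of all tested genes.

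Inside the cell, each tissue had its own carriers. FABP1 and LBFABP, the liver fatty acid-binding protein and the liver basic form known in birds, were at 3376, 2554 and 3329.5 FPKM and at 2909.9, 1555 and 2228 FPKM in the livers, and at no more than 0.91 and 1.41 FPKM in a fat. FABP4 has been given above, and it made up 65.5% to 74.7% of the summed FPKM of the carrier list in the fats. FABP3, the heart-type form, was at 1294, 1182 and 940.4 FPKM in the fats and at 0.48, 1.57 and 1.23 FPKM in the livers (log2 difference -9.11 ± 0.24 SE, adjusted p = 4.72e-07). FABP5 was at 427, 486 and 501 FPKM in fat and at 3.04, 6.09 and 4.63 FPKM in liver. RBP7, a cellular retinol-binding protein that marks chicken adipocytes, was at 2787, 3947 and 4147 FPKM in fat and at 0.75, 0.37 and 0.63 FPKM in liver (log2 difference -11.15 ± 0.20 SE, adjusted p = 1.54e-07). The 15 matched carriers held 9 that passed the filter, 3 higher in liver (FABP1, FABP7 and LBFABP) and 4 in fat (FABP3, FABP4, FABP5 and RBP7). Among all tested genes 14.8% were higher in liver and 50.7% in fat. Under median-ratio scaling the same 4 were higher in fat, where 28.8% of all tested genes were.

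Most genes of oxidation were higher in liver. CPT1A, the gate of fatty acids into mitochondria, was at 150.1, 119.9 and 142 FPKM in the livers and at 30.8, 28.2 and 35.01 FPKM in the fats (log2 difference 2.10 ± 0.16 SE, adjusted p = 3.74e-05). EHHADH, the bifunctional enzyme of peroxisomal oxidation, was at 451, 439 and 460.2 FPKM in liver and at 4.71, 6.79 and 8.83 FPKM in fat (log2 difference 5.89 ± 0.21 SE, adjusted p = 1.38e-06). HADHA, the mitochondrial trifunctional subunit, was 5.93 times as high in liver. Of the 29 tested genes 24 were higher in liver and 2 in fat, with a median of 1.58, against 14.8% and 50.7% of all tested genes. With median-ratio scaling the counts were 25 and 2, against 29.1% and 28.8%.

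The 2 genes of that list higher in fat, OXCT1 and BDH1, belong to ketone body metabolism. OXCT1, which activates acetoacetate for use, was at 31.6, 37.1 and 29.2 FPKM in the fats and at 1.03, 1.87 and 2.23 FPKM in the livers (log2 difference -3.65 ± 0.21 SE, adjusted p = 1.13e-05). BDH1, which interconverts the 2 ketone bodies, followed OXCT1, with 45.9, 52.8 and 34.1 FPKM in fat and 2.27, 4.37 and 3.81 FPKM in liver (log2 difference -3.35 ± 0.25 SE, adjusted p = 3.46e-05). For both genes every fat was above every liver, and both stayed higher in fat with median-ratio scaling.

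**Figure D3:**
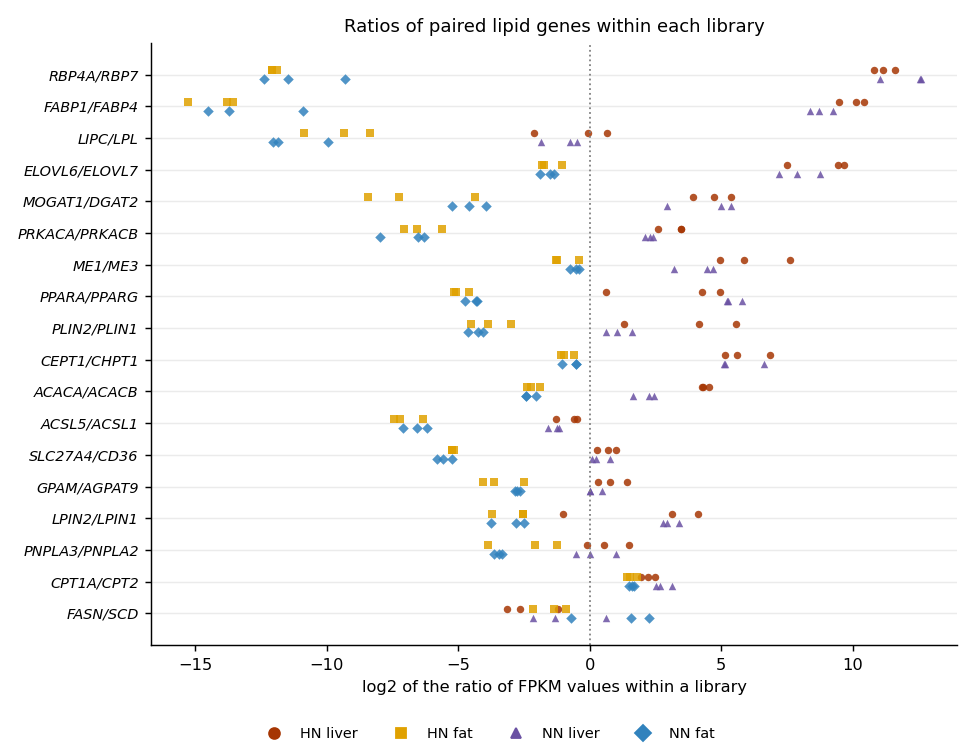
Ratio of the FPKM values of 18 pairs of lipid genes within each library, on a log2 axis (x axis), in HN liver, HN fat, NN liver and NN fat with 3 libraries each. Ratios of ACACA to ACACB, ELOVL6 to ELOVL7 and FABP1 to FABP4 were above 1 in each liver and below 1 in each fat, while those of CPT1A to CPT2 lay close together, at 3.81 to 5.49 in HN liver and 2.65 to 3.44 in HN fat.

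Transcription factors known to regulate these pathways also differed between the tissues. SREBF1, which drives lipogenic genes, was at 128, 71.8 and 125 FPKM in the livers and at 22.2, 26.7 and 14.6 FPKM in the fats (log2 difference 2.30 ± 0.30 SE, adjusted p = 0.000499). MLXIPL (ChREBP), which answers to carbohydrate, was at 69.1, 37.2 and 62.6 FPKM in liver and at 1.65, 0.81 and 1.04 FPKM in fat (log2 difference 4.70 ± 0.27 SE, adjusted p = 1.06e-05). PPARA, the regulator of oxidation, was at 28.8, 9.30 and 23.99 FPKM in liver and at 1.26, 2.87 and 1.64 FPKM in fat (log2 difference 2.79 ± 0.42 SE, adjusted p = 0.000944). PPARG, the regulator of adipocyte formation, was at 44.8, 69.7 and 56 FPKM in fat and at 0.93, 6.08 and 1.25 FPKM in liver (log2 difference -4.18 ± 0.48 SE, adjusted p = 0.000272). Liver 2 was lowest of the livers for PPARA and highest for PPARG, and without it the difference of PPARG was -4.77. The ratio of PPARA to PPARG was 30.9, 1.53 and 19.2 in the livers, against 0.0281 to 0.0412 in the fats.

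Among hepatocyte regulators HNF4A was at 32.9, 10.8 and 27.4 FPKM in liver and below 0.1 FPKM in each fat. EBF1 and ZNF423, regulators of the adipocyte lineage, were at 18.7, 18 and 18.7 FPKM and at 21.4, 18.7 and 21.6 FPKM in the fats, and at no more than 0.20 and 1.24 FPKM in a liver. NR1H3 (liver X receptor alpha), which answers to sterols, was at 46.9, 78.1 and 63.9 FPKM in liver and at 105, 130.3 and 125 FPKM in fat, and CEBPA, which acts in both tissues, was at 169.8, 93.9 and 223 FPKM and 378, 412 and 313 FPKM. Both were higher in fat in FPKM (adjusted p = 0.00648 and 0.0104) but not with median-ratio scaling (adjusted p = 0.47 and 0.187). Over the 48 regulators 20 were higher in liver and 21 in fat, with a median of 0.18. Among all tested genes 14.8% were higher in liver and 50.7% in fat. With median-ratio scaling the regulator counts were 25 and 11, with a median of 0.87, against 29.1% and 28.8% of all tested genes.

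Genes of hormones and their receptors were split between the tissues. ADIPOQ (adiponectin) was at 209.7, 149 and 141 FPKM in the fats and at 0.36, 0.55 and 0.76 FPKM in the livers (log2 difference -6.74 ± 0.20 SE, adjusted p = 6.32e-07), and its binding partner CDH13 was at 85.05, 94.1 and 92.1 FPKM and 0.28, 0.37 and 0.26 FPKM. RARRES2 (chemerin), an adipokine that liver also makes, was at 2407, 2662 and 3157 FPKM in liver and at 305, 283 and 241 FPKM in fat (log2 difference 3.30 ± 0.18 SE, adjusted p = 7.5e-06). CFD (adipsin) was abundant in both tissues and was not called, at 745, 832 and 854 FPKM in liver and at 902, 612 and 1044 FPKM in fat (95% interval -0.57 to 0.49), but with median-ratio scaling it was called higher in liver (adjusted p = 0.0163). KLB and FGFR4, which together receive FGF19 in mammals, were 17.7 and 19.9 times as high in liver by the ratio of means. IGF1 was 6.43 times as high. On the log2(FPKM + 1) scale the differences were 2.325 for KLB, 3.968 for FGFR4 and 2.102 for IGF1. Of 14 tested genes 5 were higher in liver and 6 in fat, against 14.8% and 50.7% of all tested genes. With median-ratio scaling the counts were 7 and 3, against 29.1% and 28.8%.

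Outside the lists, the 10 genes highest in liver over fat included genes of plasma proteins and hepatic enzymes. They were APOA2, ORM1, PIT54, GC, CL2, NME4, SPINK5, CYP4B1, CYP2K1L and RBP4A, with log2 differences from 10.91 for APOA2 to 9.44 for RBP4A. APOA2, an apolipoprotein of high-density lipoprotein, was at 8409, 8572 and 11079.6 FPKM in the livers and at 3.32, 4.24 and 3.92 FPKM in the fats. RBP4A, of the family of plasma retinol carriers, was at 1355, 1134 and 1426 FPKM in liver and at 0.64, 0.91 and 1.08 FPKM in fat. The 10 genes highest in fat were ANXA1, SSTR2, VIM, TPPP3, HOPX, COL28A1, SCARA5, RET, POSTN and ANXA2, with differences from -8.07 for ANXA1 to -6.80 for ANXA2. SSTR2, a somatostatin receptor, was at 242, 153 and 271 FPKM in the fats and at 0.09, 0.10 and 0.08 FPKM in the livers. VIM, the intermediate filament of mesenchymal cells, was at 2120.5, 2189 and 1956 FPKM in fat and at 8.42, 13.4 and 9.15 FPKM in liver.

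The division between tissues was measured again in the 6 NN libraries, which share no library with the HN comparison. In them 9462 genes (75.6%) were called, 2056 in favour of liver (16.4%) and 7406 of fat (59.2%). Of the 1853 genes higher in HN liver 1667 (90%) were also called higher in NN liver, and of the 6349 genes higher in HN fat 6116 (96.3%) were also called higher in NN fat. The opposite call was made for 1 gene of each set. Among the lipid genes 137 of 144 and 83 of 85 calls were the same on the normal diet. The cholesterol enzymes had 11 calls in favour of liver and 2 of fat on the normal diet, with a median of 0.58, against 14, 0 and 1.60 on the HFD. Oxidation had 25 and 3, with a median of 1.58 on both diets. The ratio of ACACA to ACACB was 4.79, 5.38 and 3.09 in the NN livers, all below the HN livers (19.3 to 22.9), and 0.184 to 0.242 in the NN fats.

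The diet by tissue interaction, which asks whether the tissue difference itself differed between diets, gave 0 of 12511 genes at an adjusted p of 0.05 in limma, and 569 genes (4.55%) at an unadjusted p of 0.05. With the replicate number as a block it gave 4 genes (0.032%). Of the 291 lipid genes 40 had an unadjusted p under 0.05, and 7 of these were among the 19 cholesterol enzymes. FDPS, a prenyl transferase of the sterol pathway, had the smallest interaction p of the lipid genes (interaction 1.19 ± 0.22 SE, adjusted p = 0.317). It was at 73.2, 84.1 and 63.4 FPKM in HN liver and 18.8, 13.5 and 13.9 FPKM in HN fat, and at 22.9, 25.9 and 28.5 FPKM in NN liver and 12.6, 12.6 and 11.7 FPKM in NN fat. The HN livers were the highest group, and every library of the other 3 groups lay below them.

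HSD17B7, a sterol 3-ketoreductase, was at 11.98, 34.4 and 10.8 FPKM in HN liver, 7.99, 9.53 and 5.81 FPKM in HN fat, 2.02, 2.09 and 2.96 FPKM in NN liver and 6.17, 6.10 and 5.28 FPKM in NN fat (interaction 2.06 ± 0.49 SE, adjusted p = 0.643). CPT1A had a smaller tissue difference on the HFD (2.10) than on the normal diet (2.79), and PRKAR2B a larger one in favour of fat (-4.58 against -3.60), with unadjusted interaction p-values of 0.0025 and 0.00176. Neither passed the adjustment.

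The 4 genes called with the block, named for that call after their values were seen, were THRSPB, APOF, LOC101748650 and LOC100857622. THRSPB, a second chicken Spot 14 gene, was at 962, 466 and 398 FPKM in HN liver and 411, 378 and 421 FPKM in HN fat, and at 103, 113 and 65.9 FPKM in NN liver and 769, 835 and 498 FPKM in NN fat. On the normal diet each fat was above each liver, and on the HFD the tissues overlapped. The HFD difference was called in favour of liver under median-ratio scaling (adjusted p = 0.0196) but not in FPKM (adjusted p = 0.226). The interaction was 3.37 ± 0.45 SE (adjusted p = 0.116, and adjusted p = 0.0376 with the block). THRSPB and THRSP are related genes, so reads could be shared between them. APOF, an apolipoprotein that modulates CETP in mammals, was at 236, 217 and 368 FPKM in HN liver and at 46.5, 63.7 and 106 FPKM in NN liver, and at no more than 8.59 FPKM in a fat (adjusted p = 0.0356 with the block).

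**Figure D4:**
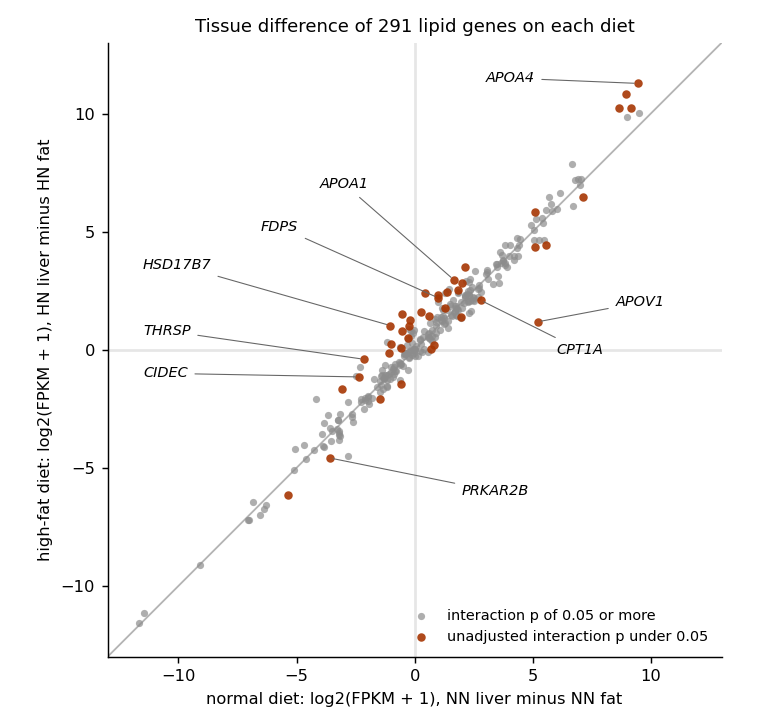
Differences in log2(FPKM + 1) between liver and fat of 291 lipid genes on the normal diet (x axis, NN) and on the high-fat diet (y axis, HN), 3 libraries per tissue and diet, with the line of equality. Points follow the line over the whole range, and the 40 genes with an unadjusted interaction p under 0.05 are in colour, none of which passed the adjusted p of 0.05.

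Replicate 2 carried a set of genes at a raised level in both HN tissues. Among the 8763 genes whose mean reached 5 FPKM, 84 were at least 2-fold higher, on the log2(FPKM + 1) scale, in replicate 2 than in each other replicate in both tissues, against 2 genes for replicate 1 and 3 for replicate 3. Among 8983 genes that reached that mean in the NN libraries, the counts were 5, 4 and 14 for replicates 1, 2 and 3. The co-chaperone gene BAG3 and HSP25 had the largest steps among those of the 84 with a gene symbol. HSP25, a small heat-shock protein, was at 21.6, 2988 and 10.2 FPKM in the livers and at 164, 4651 and 245 FPKM in the fats. FKBP5, a target of the glucocorticoid receptor, was at 22.3, 369 and 18.8 FPKM in the livers and at 33.8, 248 and 14.8 FPKM in the fats. Replicate 2 was far above both other replicates in both genes.

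Of the lipid genes CHKA, LPIN1, KLF6 and PLIN2 belonged to the 84. The tissue differences of CHKA, LPIN1 and PLIN2 were not called with all replicates. With replicate 2 left out of both tissues, LPIN1 was called higher in fat (log2 difference -3.43, adjusted p = 0.000611). Without replicate 2 PLIN2 had a log2 difference of -0.03 (adjusted p = 0.948), against 0.32 with it, and CHKA of -0.26 (adjusted p = 0.415), against -0.11. KLF6, a transcription factor, was at 2.44, 33.7 and 3.43 FPKM in the livers and at 43.9, 136 and 41.6 FPKM in the fats (log2 difference -2.98 ± 0.91 SE, adjusted p = 0.0223), and its difference was -3.49 without replicate 2 of both tissues (adjusted p = 0.000284). The call of KLF6 was lost when liver 1, liver 3 or fat 2 was left out (adjusted p = 0.0667, 0.0697 and 0.072) and with median-ratio scaling (adjusted p = 0.081). Summed erythrocyte markers were lowest in replicate 2 of both tissues, at 936, 170 and 622 FPKM in the HN livers and 1835, 314 and 485 FPKM in the HN fats, and replicate 2 was also the lowest in the NN livers and NN fats. Without replicate 2 the HN comparison called 7842 genes, 1769 in favour of liver and 6073 of fat.

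**Figure D5:**
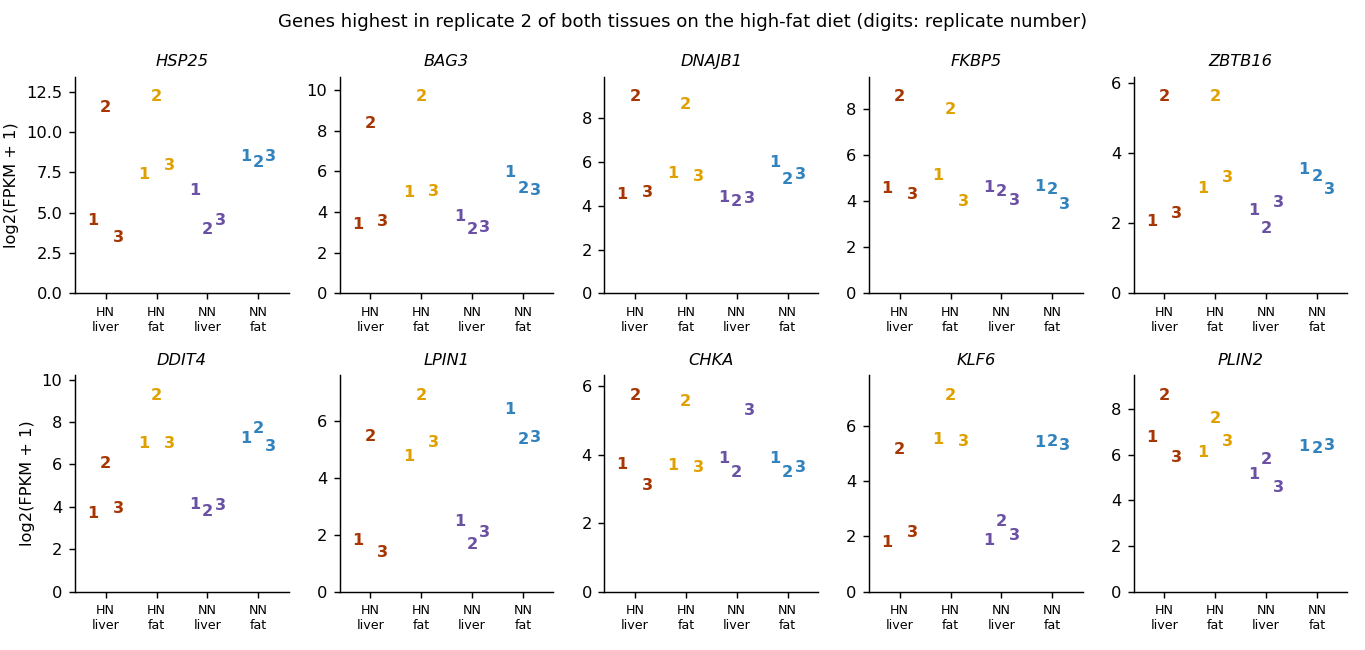
Levels as log2(FPKM + 1) (y axis) of 10 genes in the 4 groups (x axis), each digit being the replicate number of 1 library. Replicate 2 lies above replicates 1 and 3 in HN liver and HN fat in all 10 panels, with HSP25 at 2988 FPKM in HN liver 2 and 4651 FPKM in HN fat 2, and replicate 2 takes no such step in the NN groups.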

How the data were processed

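RNA of 3 livers and 3 abdominal fats per diet was sequenced on a BGISEQ-500. The authors deposited 1 table per library with a value for each gene in FPKM, that is, already scaled for gene length and library total. The labels name HISAT2 2.0.4, Bowtie2 2.2.5 and RSEM 1.2.12, and the genome build is not given in the sources used here. Count-based tests were not run, since read counts were not analysed here and the depth of each library is unknown beyond the limited estimate given. Values were taken as log2(FPKM + 1), genes with a mean below 1 FPKM over the 6 HN libraries were left out, and liver was compared with fat in limma 3.58.1 (R 4.3.3) with an intensity trend and Benjamini-Hochberg adjustment over all tested genes at 0.05. The interaction used all 12 libraries. Genes to name were taken from the lists in the order of their roles, with the 10 genes outside the lists of largest difference in each direction and the 5 lipid genes of smallest interaction p. Members and lists were chosen with earlier results of these data known. A few items are not reported here. Symbols without a match (34) and genes below the filter were not analysed here. For the same number, deviations from the group means correlated between liver and fat with r = 0.227, 0.398 and 0.121 in HN. In NN these values were 0.278, 0.267 and 0.226. Between different numbers r was -0.372 to 0.192 in HN and -0.166 to -0.089 in NN. HN liver 3 correlated more with fat 1 (r = 0.192) than with fat 3 (r = 0.121), so the HN numbers did not clearly pair the samples. The numbers were used as a block in an alternative fit only. The other alternatives were another pseudocount and filter, median-ratio, TPM and quantile scaling, 1 fit over all 12 libraries, and leaving out each library or, chosen after seeing the data, replicate 2 of both tissues.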

Additional observations from a re-analysis of the deposited data

Results flagged for a closer look

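HSD17B7, a 3-ketoreductase of sterol synthesis, had liver and fat in opposite order on the 2 diets. The HFD difference was not called, except in 6 of 15 alternatives. Each HN liver was above each HN fat (11.98, 34.4 and 10.8 against 7.99, 9.53 and 5.81 FPKM), and each NN liver was below each NN fat (2.02, 2.09 and 2.96 against 6.17, 6.10 and 5.28 FPKM). On the HFD the log2 difference was 1.03 (limma, adjusted p = 0.0679), and 1.71 with median-ratio scaling (limma, adjusted p = 0.0182). On the normal diet, without that scaling, it was -1.04 (limma, adjusted p = 0.000522), where the median of all tested genes was -0.64. The interaction was 2.06 on the log2 scale and did not pass the adjustment over all genes (limma, adjusted p = 0.643). HSD17B7 was picked out of 291 lipid genes by this pattern, and HN liver 2 was the highest library.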

How the results depend on the processing

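Scaling moved the split between the tissues. On the HFD 3646 genes were higher in liver and 3604 in fat with median-ratio scaling, and 3212 and 3768 with quantile normalization. Differences of at least 4-fold in favour of fat numbered 1000 with median-ratio scaling, 1032 with quantile normalization and 2600 with TPM scaling. The filter at 5 FPKM, which tests fewer genes, gave 5897 genes on the HFD, and a pseudocount of 0.1 gave 3440 genes of at least 4-fold. On the normal diet the counts were 3997 and 4001 with median-ratio scaling, and 3670 and 4335 with quantile normalization. The interaction gave 4 genes with the replicate block and 0 to 4 when 1 library was left out. Leaving out 1 library gave 7091 to 7988 genes on the HFD. Of 106 named genes that were called, 96 kept the call in each alternative that could be fitted for them (14 for ADRB3, CYP7A1 and KLB, 15 for the others) and 10 lost it in at least 1 (the values are given with the genes). The replicate block changed the call of FASN, LPIN1, HSD17B7 and G0S2 and of no other named gene. The direction of 6 genes that were not called turned. With median-ratio scaling the differences were 0.71 for CFD, 0.59 for CHKA, 0.51 for DHCR7, 0.58 for SAR1A and 0.35 for THRSP. With quantile normalization they were 0.39 for CHKA and 0.58 for DHCR7, with TPM scaling -0.026 for PLIN2, and without replicate 2 of both tissues -0.03 for PLIN2 and 0.057 for THRSP. Leaving out 1 library gave -0.26 to 0.12 for CFD, -0.89 to 0.52 for CHKA, -0.25 to 0.032 for DHCR7, -0.45 to 0.92 for PLIN2 and -0.81 to 0.015 for THRSP. The cause was not tested. Depth in reads is unknown, so genes near 0 FPKM have an unknown floor.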
